A study of Mus musculus with 8 samples.

Results

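Hepatocytes take up organic anions, steroid conjugates, bile pigments, hormones and drugs from sinusoidal blood through membrane carriers. A set of 6 such carrier genes was followed: Slco1a1, Slco1a4, Slco1b2, Slco2a1 and Slco2b1 of the organic anion transporting polypeptide family, and Slc22a7 of the organic anion and cation transporter family. They were found by gene name among the non-control probes of a single-colour Agilent mouse array. The array carried 12 probes for them, of which 10 passed the signal filter, and all 6 genes stood among the 17565 genes tested. None of the 6 is known mainly as a cation carrier, so the cation side of hepatic uptake is given through related genes at the end.

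The samples were livers of male mice taken 8 h after acetaminophen, 4 from mice aged 8 weeks (8W, called young) and 4 from mice aged 80 weeks (80W, called old). Both groups had received the drug, and untreated livers were not analysed here, and whether the ages already differed at rest or answered the drug differently cannot be told apart. Neither the strain nor the dose, nor whether the replicates are separate animals, is given in the sources used here. The p-values therefore reflect only the spread among these samples, part of which may be technical. In whole liver, fewer cells of a type and less RNA per cell cannot be told apart either. Of 17 tested hepatocyte markers, 17 were well above background on all 8 arrays.

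Organic anion transporting polypeptides are bidirectional carriers of bulky amphipathic compounds that work without direct use of ATP, and several of them sit on the blood-facing side of the hepatocyte. In mouse liver the products of Slco1a1, Slco1a4 and Slco1b2 overlap in what they carry, including bile acids and steroid conjugates, and Slco1b2 is the mouse relative of the human liver carriers OATP1B1 and OATP1B3. Slco2a1 encodes the prostaglandin transporter and is expressed in many cell types. Slc22a7 encodes Oat2, which belongs to a separate carrier family.

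The 8 arrays shared 1 slide and 1 scan. Row 1 of that slide held all the young and row 2 all the old samples, which leaves position and age confounded: the effects of each cannot be told apart. Between 27144 and 31141 non-control spots per array were well above background, and no spot was saturated. Young replicates 1 and 2 stood apart from the other 6 arrays: on the first principal component, which held 49.1% of the variance, they lay at -61.3 and -99.2, against 10.2 to 47.5 for the rest. Each carrier is therefore given with and without these 2 arrays. In this text a level is the log2 intensity relative to the 75th percentile of the same array, and a difference is the old mean minus the young mean on that log2 scale. Levels of different probes share no scale, so no carrier is ranked above another.

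The 250 bases in front of the RefSeq start of each gene (build GRCm38.p6) were read for 5 of the 6 carriers, in 7 windows. Each was searched on both strands for 6 motifs of liver transcription factors: GTTAAT (the core of an HNF1 site), GCGTG (aryl hydrocarbon receptor), TGACNNNGC (NRF2), TTCNNNGAA (STAT5), the HNF4 direct repeat and the inverted repeat of the bile acid receptor. The windows of Slco1b2 and Slco2b1 are shown because they belong to carriers with an interval above 0 in the age comparison and were the only 2 of the 7 with a match. Capitals mark the matched letters.
Slco1b2, chr6:141629268-141629517, plus strand: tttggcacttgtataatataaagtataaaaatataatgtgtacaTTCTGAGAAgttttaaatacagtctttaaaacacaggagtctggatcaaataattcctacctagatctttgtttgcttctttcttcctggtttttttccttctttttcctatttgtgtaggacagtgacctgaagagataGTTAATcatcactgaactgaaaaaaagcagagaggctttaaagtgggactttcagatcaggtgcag
Slco2b1, chr7:99695810-99696059, minus strand: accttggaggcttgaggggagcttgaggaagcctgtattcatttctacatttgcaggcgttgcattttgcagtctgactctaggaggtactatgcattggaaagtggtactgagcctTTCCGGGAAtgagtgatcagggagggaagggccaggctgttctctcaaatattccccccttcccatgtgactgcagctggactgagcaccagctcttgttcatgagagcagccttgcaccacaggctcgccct

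The Slco1b2 window held GTTAAT starting at position -66 on the plus strand and a TTCNNNGAA match at position -206, counted from the start of the transcript. The Slco2b1 window held a TTCNNNGAA match at position -133. That motif reads the same on both strands and overlapped no other match. Such matches are common: 6.43% of 32851 RefSeq windows of 250 bases held GTTAAT and 7.02% held TTCNNNGAA. The shares were 28.2% for GCGTG, 10.2% for TGACNNNGC, 0.0335% for the HNF4 direct repeat and 0.00609% for the bile acid receptor repeat. In the windows of Slco1a1, Slco1a4 and Slco2a1 and in the other 2 windows of Slco2b1, these letters were not found. A match describes the letters of a window and is not a measured binding site.

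The comparison of old with young livers asked whether uptake carriers were expressed at other levels in aged mice 8 h after acetaminophen. Slc22a7, Slco1b2 and Slco2b1 had higher means in old livers, Slco2a1 had a lower mean, and Slco1a1 and Slco1a4 differed by less than their spread. None of the 6 passed an adjusted p of 0.05 (limma, Benjamini-Hochberg over 17565 genes), where 0.359% of all genes did, 0.330% in the higher and 0.0285% in the lower direction. At an unadjusted p under 0.05 there were 3 of 6 carriers, all 3 higher, against 14.1% of all genes in either direction with 7.91% higher and 6.14% lower. The groups did not overlap for 1 carrier, which was higher, against 8.38% of all genes in either direction and 4.62% in the higher one. The median difference of the 6 was 0.61, where the median of all genes was 0.018, and 5 of the 6 differences were above 0, against 52.0% of all genes.

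**Figure D1:**
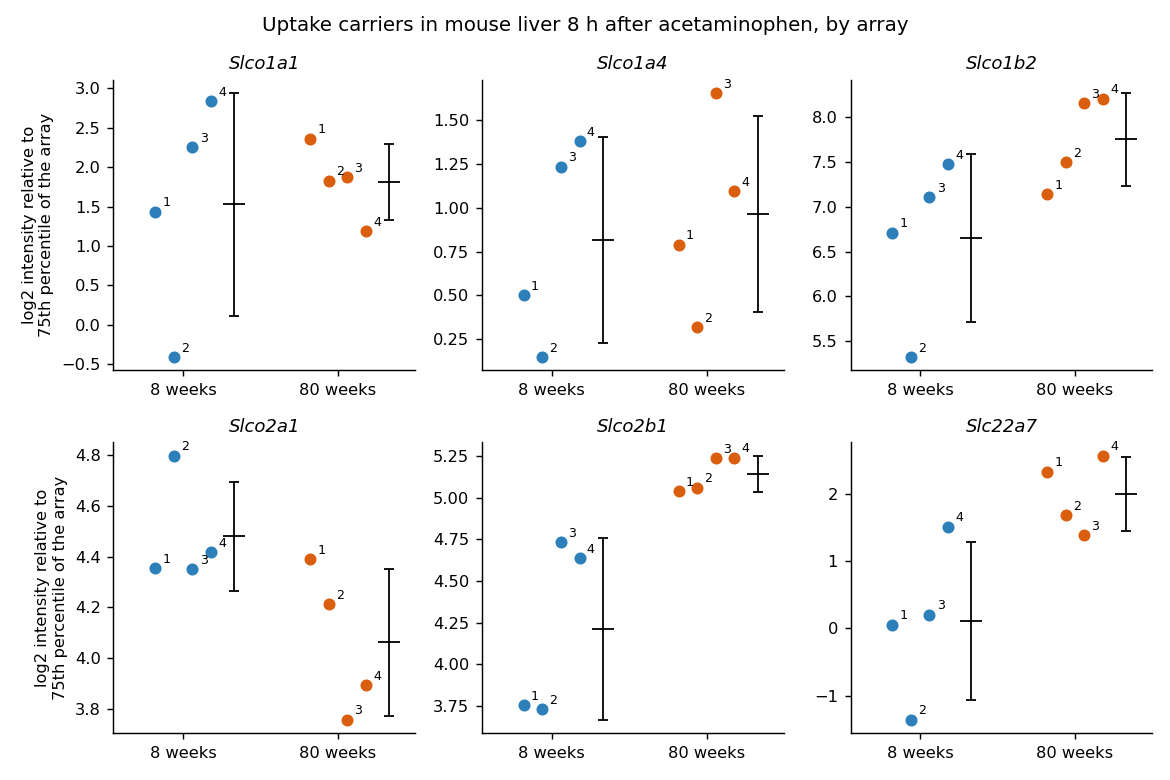
Level of each carrier on each array, as log2 intensity relative to the 75th percentile of that array (vertical axes, 1 scale per panel), for 4 young (blue) and 4 old (orange) livers with replicate numbers; crossbars are group means and error bars are SD (n = 4). Young replicate 2 is the lowest point in the panels of Slco1a1, Slco1a4, Slco1b2, Slco2b1 and Slc22a7 and the highest in that of Slco2a1, and the groups are separate for Slco2b1, with a gap of 0.31.

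Slc22a7, whose product Oat2 carries small organic anions and nucleotide compounds, showed the widest difference of the 6. Its levels on young replicates 1 to 4 were 0.06, -1.36, 0.21 and 1.51, and on old replicates 1 to 4 they were 2.33, 1.68, 1.39 and 2.57. Of the 4 old arrays 3 lay above every young array, and old replicate 3 lay below young replicate 4, so the groups overlapped. The means were 0.10 ± 1.17 in young and 1.99 ± 0.55 in old livers (SD, n = 4 each). The difference was 1.89 (SE 0.54, unadjusted p = 0.00622, adjusted p = 0.226), a 3.70-fold higher level with a 95% interval of 1.60 to 8.55. With young replicates 1 and 2 left out the difference was 1.13 (adjusted p = 0.548). The probe lies on chromosome 17 from 46569272 to 46569331, minus strand, on build mm9, as do all probe positions given here. Exon and intron were not assigned to the probes, since an mm9 annotation was not used here.

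Slco1b2, a carrier largely restricted to hepatocytes that takes up bile acids, bilirubin and mushroom and algal toxins, was the second carrier with an interval above 0. Its levels were 6.71, 5.32, 7.11 and 7.48 on young replicates 1 to 4, and 7.14, 7.50, 8.16 and 8.21 on the corresponding numbers of the old group. Again 3 of 4 old arrays lay above every young array, and young replicate 2 stood lowest by more than 1 log2 unit. From a young mean of 6.66 ± 0.94 to an old mean of 7.75 ± 0.52 (SD, n = 4 each), the difference was 1.10 (SE 0.45, unadjusted p = 0.0377, adjusted p = 0.338), or 2.14-fold with a 95% interval of 1.06 to 4.35. It dropped to 0.46 (adjusted p = 0.719) without young replicates 1 and 2, and the interval then spanned 0, from -0.36 to 1.28. The interval also included 0 when 1 array was left out: young replicate 1 or 2, or old replicate 3 or 4. Its lower ends were then -0.087, -0.072, -0.19 and -0.20, in that order. Median scaling and array weights also gave an interval that included 0 (lower ends -0.028 and -0.0019). These values come from the probe at chromosome 6, 141634476 to 141634535, plus strand. A second Slco1b2 probe, at 141605178 to 141605237, was well above background on 0 of 8 arrays and was not tested.

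Slco2b1, a carrier of steroid sulfates and many oral drugs, was the carrier whose age groups were separate. It stood at 3.75, 3.73, 4.73 and 4.64 on young replicates 1 to 4 and at 5.04, 5.06, 5.24 and 5.24 on old replicates 1 to 4. The young arrays formed a lower pair, replicates 1 and 2, and a higher pair, replicates 3 and 4, whereas the old arrays spanned 1.15-fold from lowest to highest. The means were 4.21 ± 0.55 and 5.14 ± 0.11 (SD, n = 4 each), a difference of 0.93 (SE 0.27, unadjusted p = 0.00657, adjusted p = 0.231), or 1.91-fold with a 95% interval of 1.26 to 2.90. Without young replicates 1 and 2 it was 0.46 (adjusted p = 0.463), and the groups were still separate. The gap between the highest young and the lowest old array was 0.31.

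The 2 Slco2b1 probes disagreed. The values above come from the brighter probe, at chromosome 7, 106807008 to 106807067 on the minus strand, which is the strand of the gene. The other, at 106815871 to 106815930, is annotated to the opposite strand. In a fit across all probes its difference was -0.01 (SE 0.32, adjusted p = 0.990), with levels from -2.44 to -1.02 in young and from -1.86 to -1.38 in old livers. When a gene was taken as the mean of its tested probes, the Slco2b1 difference was 0.46 (adjusted p = 0.465).

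Slco1a1, the carrier typical of male mouse liver, differed between single livers more than between the ages. Young replicates 1 to 4 read 1.43, -0.41, 2.25 and 2.84, and old replicates 1 to 4 read 2.36, 1.83, 1.88 and 1.19. The young arrays held both the lowest and the highest value of all 8 and spanned 9.51-fold, while the old arrays spanned 2.26-fold. The difference of the means, 1.53 ± 1.42 in young and 1.81 ± 0.48 in old livers (SD, n = 4 each), was 0.29 (SE 0.62, 95% interval -1.10 to 1.67, adjusted p = 0.844). Its sign depended on the young arrays: it was -0.36 without young replicate 2 and -0.73 (adjusted p = 0.584) without young replicates 1 and 2. The second probe gave 0.69 (SE 0.66, adjusted p = 0.639), with its lowest value, -1.02, on young replicate 2 as well. The brighter probe lies on chromosome 6 at 141856493 to 141856552 and the second at 141857328 to 141857387, both on the minus strand.

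Slco1a4, which is also a carrier of the blood-brain barrier, had a single probe, at chromosome 6, 141754675 to 141754734, minus strand. The levels on young replicates 1 to 4 were 0.50, 0.15, 1.23 and 1.38, and on old replicates 1 to 4 they were 0.79, 0.32, 1.65 and 1.10. Each group held arrays at both ends of the range, and the group ranges were alike in width, 2.34-fold in young and 2.52-fold in old livers. The means were 0.82 ± 0.59 and 0.96 ± 0.56 (SD, n = 4 each), and the difference was 0.15 (SE 0.36, adjusted p = 0.861) with a 95% interval of -0.65 to 0.95. It was -0.07 without young replicate 2, -0.08 without old replicate 3 and -0.34 (adjusted p = 0.785) without young replicates 1 and 2.

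Slco2a1, the prostaglandin transporter, was alone among the 6 in having a lower mean in old livers. Its brightest probe, at chromosome 9, 102990100 to 102990159, plus strand, read 4.35, 4.80, 4.35 and 4.42 on young replicates 1 to 4 and 4.39, 4.21, 3.76 and 3.89 on old replicates 1 to 4. Old replicates 2, 3 and 4 lay below every young array, and old replicate 1 lay among the young arrays. With means of 4.48 ± 0.21 and 4.06 ± 0.29 (SD, n = 4 each), the difference was -0.42 (SE 0.21, 95% interval -0.88 to 0.05, unadjusted p = 0.0750, adjusted p = 0.389). Without young replicates 1 and 2 it was -0.32 (adjusted p = 0.694). Young replicate 2, the lowest array for the other 5 carriers, was the highest array for Slco2a1.

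The 3 tested Slco2a1 probes had the same sign and different sizes. The second probe by brightness, at 102992265 to 102992324, read 1.99, 2.37, 1.38 and 1.61 on young and 1.51, 1.16, 0.65 and 0.86 on old replicates 1 to 4. Its difference was -0.79 (SE 0.28, unadjusted p = 0.0175, adjusted p = 0.294), and old replicate 1 was the old array that reached into the young range. The third, whose listed span runs over 243 bases from 102913679 to 102913921, was well above background on 4 young and 2 old arrays. Its difference was -1.97 (SE 0.94, adjusted p = 0.374), and its old levels ran from -4.49 to 0.61, so old replicate 1 lay above all young arrays there. The last Slco2a1 probe, at 102998270 to 102998329, was well above background on 1 young and 1 old array and was not tested. The mean of the tested probes gave -1.06 (adjusted p = 0.339).

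**Figure D2:**
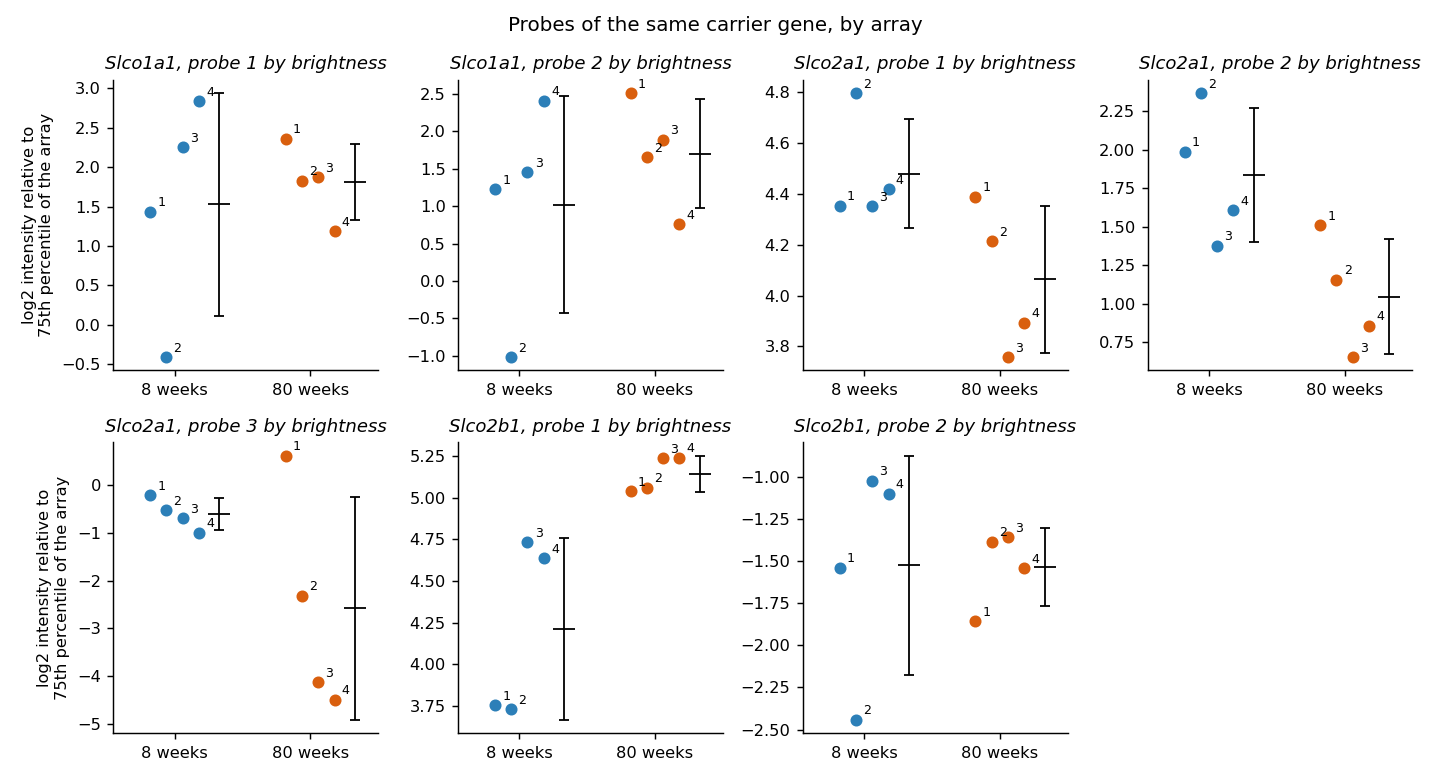
Levels of the tested probes of the 3 carriers with more than 1 tested probe, by array, as log2 intensity relative to the 75th percentile (vertical axes, 1 scale per panel), numbered by brightness; points are 4 young (blue) and 4 old (orange) livers, crossbars means and error bars SD. The Slco2a1 probes all have lower old means, by 0.42, 0.79 and 1.97, whereas the brighter Slco2b1 probe differs by 0.93 and the dimmer one by -0.01.

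Hepatocyte markers moved with the low young array. Their summed level relative to the 75th percentile was 10367, 6346, 11675 and 12444 on young replicates 1 to 4, and 13668, 9794, 9779 and 8524 on old replicates 1 to 4, so young replicate 2 was lowest. Between the ages, 13 of 17 differences were above 0, the median was 0.06 and 0 passed the adjusted threshold. The direction of this list turned without young replicate 2 (1 of 17 above 0, median -0.16), without old replicate 1 (3 of 17, median -0.087) and without young replicates 1 and 2 (1 of 17, median -0.20). With all 8 arrays kept, it also turned with median scaling (5 of 17, median -0.045) and with array weights (1 of 17, median -0.21). Scaling each array to the median of these markers in place of the 75th percentile, a choice made after their values were seen, gave differences of 0.23 for Slco1a1, 0.09 for Slco1a4, 1.04 for Slco1b2, -0.47 for Slco2a1, 0.88 for Slco2b1 and 1.83 for Slc22a7 (adjusted p = 0.901, 0.952, 0.506, 0.739, 0.398 and 0.172). With that scaling the groups of Slc22a7 did not overlap.

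**Figure D3:**
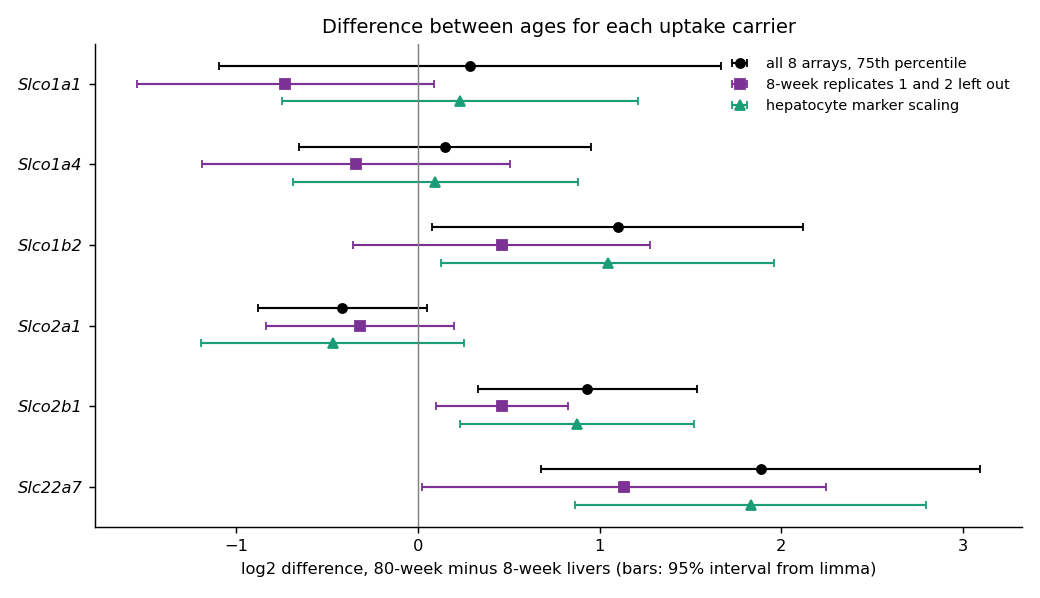
Log2 difference between old and young livers (horizontal axis) for each carrier, with 95% intervals from limma, for all 8 arrays scaled to the 75th percentile (black circles), without young replicates 1 and 2 (purple squares) and for scaling to hepatocyte markers (green triangles). The intervals of Slc22a7 and Slco2b1 lie above 0 in all 3 versions, that of Slco1b2 includes 0 without the 2 young arrays (-0.36 to 1.28), and the Slco1a1 and Slco1a4 estimates turn negative there (-0.73 and -0.34).

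The ratio of a pair of carriers on the same array needs no scaling between arrays, and such ratios were compared for all 15 pairs with a two-sided exact permutation test over the 8 arrays, whose smallest possible p is 0.0286. The ratio of 5 pairs did not overlap between the ages and reached that value (exact p = 0.0286, adjusted p = 0.0857 over 15 pairs). Thus 0 of 15 passed an adjusted p of 0.05. With this smallest p, 5 pairs that reach it cannot pass, so the adjusted threshold decides nothing about them. Each of these pairs set Slc22a7, Slco1b2 or Slco2b1 against Slco1a1, Slco1a4 or Slco2a1. The widest was Slco2a1 over Slc22a7, with log2 ratios of 4.30, 6.15, 4.15 and 2.91 on young replicates 1 to 4 and 2.06, 2.54, 2.37 and 1.33 on old replicates 1 to 4, a change of -2.30. The change was -1.60 for Slco1a1 over Slc22a7, -1.35 for Slco2a1 over Slco2b1, -0.95 for Slco1a4 over Slco1b2 and -0.78 for Slco1a4 over Slco2b1. All 15 pairs were built from the same 6 carriers, so their ratios are not independent of each other or of the single differences. How often ratios of other genes separate the ages was not computed, so the count of 5 has no background share beside it.

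Among the 3 carriers with higher old means, Slco1b2 over Slco2b1 changed by 0.17 (exact p = 0.629, adjusted p = 0.673), with ratios from 1.59 to 2.96 in young and 2.10 to 2.97 in old livers, and its sign was negative without young replicate 2. Slco2b1 over Slc22a7 changed by -0.95 (exact p = 0.143, adjusted p = 0.238). Slco1b2 over Slc22a7 changed by -0.79 (exact p = 0.114, adjusted p = 0.214). Slco1a1 and Slco1a4, neighbours in the same gene cluster, changed by 0.14 relative to each other (exact p = 0.914, adjusted p = 0.914), and that sign too turned without young replicate 2.

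The genes whose pattern over the 8 arrays was most like each carrier were found by Pearson correlation among 17564 other genes, as a description only: all genes share the same 8 arrays, their scaling and the distance of young replicates 1 and 2. For Slco2b1 these were Pdzk1, which encodes a scaffold protein that binds membrane carriers (r = 0.993), and Ifi27 (r = 0.993). For Slco1b2 they were Aplp2 (r = 0.995), Immp2l and Crebl2 (r = 0.990 each), and for Slc22a7 Klkb1, which encodes plasma prekallikrein (r = 0.984), and Gm26708 (r = 0.982). Slco1a1 was most like Chchd2-ps (r = 0.992), Serpinf1 (r = 0.990) and Cox8a (r = 0.988). Slco1a4 had looser neighbours, Gm11837 (r = 0.967), 1810037I17Rik (r = 0.955) and Pigx (r = 0.953). Slco2a1 was most like Mal (r = 0.984), Fmnl3 (r = 0.976) and Med24 (r = 0.975). For Slco2b1 and for Slc22a7, 1 of the 3 nearest was a probe named by a chromosome interval and is not given. Pdzk1 itself differed by 1.25 (SE 0.38, adjusted p = 0.251).

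Cell type markers were set beside Slco2a1, which is expressed in endothelium among other tissues. Of 25 tested endothelial markers 24 were well above background on all 8 arrays, 11 of 25 differences were above 0, the median was -0.02 and 0 passed the adjusted threshold. The 3 endothelial markers with the smallest p were lower in old livers without overlap: Gpr182 (difference -1.29, SE 0.34, adjusted p = 0.192), Lyve1 (-1.09, SE 0.36, adjusted p = 0.283) and Pecam1 (-0.62, SE 0.24, adjusted p = 0.309). The next marker by p, Stab2, a scavenger receptor gene of sinusoidal endothelium, was higher in old livers without overlap (0.47, SE 0.23, adjusted p = 0.385). The median of the list was -0.24, with 5 of 25 above 0, without young replicates 1 and 2, and it was above 0 without young replicate 4 (0.023) and without old replicate 4 (0.073). The summed endothelial level ran from 197 to 244 in young and from 158 to 275 in old livers. On young replicate 2, where Slco2a1 was highest, that sum was the lowest of the young group, while the summed level of 12 monocyte and neutrophil markers was at its highest of all 8 arrays, 419 against 199 to 398 on the others. The part of these cells in the Slco2a1 result was not tested.

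The other blood cell and non-parenchymal lists were mixed. Monocyte and neutrophil markers had 3 of 12 differences above 0 (median -0.36) and Kupffer cell markers 11 of 15 (median 0.32), with 0 called in either list. The summed Kupffer cell level ran from 138 to 288 in young and 155 to 397 in old livers. Stellate cell markers had 6 of 14 differences above 0 (median -0.11) and 0 called, and the median was 0.07 without old replicate 2. Of 4 tested cholangiocyte markers 2 were above 0 (median -0.46, and 0.05 with signal required on all 8 arrays), and 1 fell: Tff3, which encodes a trefoil peptide (-2.56, SE 0.27, adjusted p = 0.00496), well above background on 2 of 4 old arrays. All 7 tested lymphocyte markers had differences above 0 (median 0.49), and 1 rose: Jchain of antibody-secreting cells (5.41, SE 0.70, adjusted p = 0.0127), well above background on 1 of 4 young arrays. The lymphocyte list had 5 of 7 differences above 0 (median 0.20) without young replicate 2 and 4 of 7 (median 0.046) without young replicates 1 and 2. Neither Tff3 nor Jchain passed without young replicates 1 and 2 (adjusted p = 0.0868 and 0.112).

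Zonation, the division of labour between hepatocytes near the central vein and near the portal tract, gave unequal lists. Of 19 tested pericentral genes 19 had differences above 0, with a median of 1.41, and 1 passed: the glutamate transporter gene Slc1a2 (4.39, SE 0.57, adjusted p = 0.0127), which did not pass without young replicate 1, without young replicate 2 or without both (adjusted p = 0.0598, 0.0539 and 0.202). The summed pericentral level ran from 602 to 1416 in young livers, lowest on replicate 2, and from 1252 to 2224 in old livers. Of 20 periportal genes 11 had differences above 0, the median was 0.04 and 0 passed. Without young replicates 1 and 2 the pericentral median was 0.83, with 15 of 19 above 0, and the periportal median was -0.51, with 5 of 20 above 0. The periportal median was also negative without young replicate 1 (-0.049), without young replicate 2 (-0.20) and without old replicate 1 (-0.14). With all 8 arrays kept, its sign depended on the scaling. The periportal median was -0.037 with quantile scaling, -0.025 with normexp and quantile scaling, -0.067 with median scaling and -0.018 with hepatocyte marker scaling. With array weights it was -0.43, with 5 of 20 above 0. The part of zonal composition in the differences of Slc22a7, Slco1b2 and Slco2b1 was not tested.

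**Figure D4:**
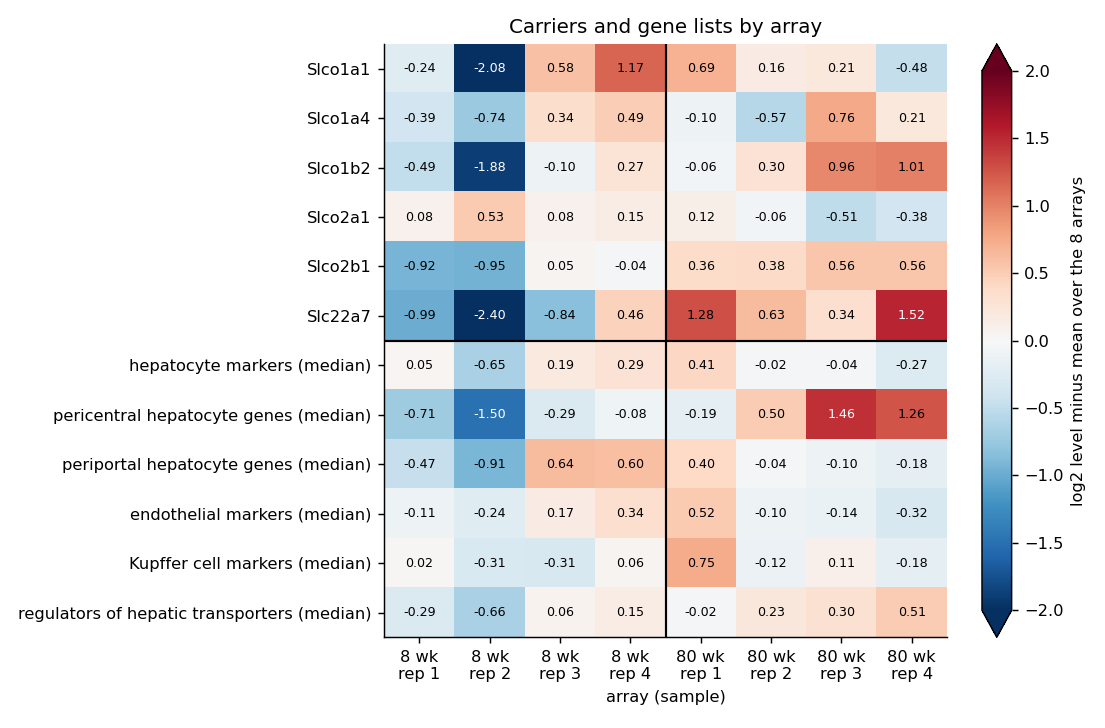
Log2 level on each array minus the mean over the 8 arrays (colour and printed value, young arrays left of the line and old arrays right of it) for the 6 carriers and, below the line, the median over the tested members of 6 gene lists. Young replicate 2 is lowest of the 8 arrays in 5 carrier rows (-2.08 for Slco1a1 and -2.40 for Slc22a7) and in the hepatocyte, pericentral and periportal rows (-0.65, -1.50 and -0.91), and Slco2a1 is highest there (0.53).

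Other uptake carriers gave the cation side and the bile acid side of the same process. Of 31 listed genes 20 were tested, 14 of 20 differences were above 0, the median was 0.12 and 0 passed the threshold. Slc22a30, a relative of Slc22a7, was higher in old livers without overlap (1.36, SE 0.34, adjusted p = 0.160). Slc22a4, which encodes a carrier of ergothioneine and organic cations, was lower in old livers without overlap, with a difference of -0.98 (SE 0.33, adjusted p = 0.285). Slc10a1, the sodium-dependent bile acid carrier, was chosen after its values were seen: its means were 8.99 ± 0.25 and 9.04 ± 0.31, the difference was 0.05 (SE 0.22, adjusted p = 0.929), and its sign turned with quantile, median or hepatocyte marker scaling.

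Efflux pumps, which move the same classes of compounds out of the hepatocyte, had 11 of 13 tested differences above 0, with a median of 0.41 and 0 called. The 4 with the smallest p were Abcg5 and Abcg8, the subunits of the sterol exporter, at 1.04 (SE 0.38, adjusted p = 0.305) and 1.08 (SE 0.42, adjusted p = 0.320), the cation exporter gene Slc47a1 at 0.93 (SE 0.35, adjusted p = 0.306) and the phospholipid exporter gene Abcb4 at 0.93 (SE 0.40, adjusted p = 0.349). Without young replicates 1 and 2 the median of the list was 0.18. Genes of bilirubin and bile acid handling had 14 of 14 differences above 0 (median 0.42) and 0 called. The bile acid enzymes Cyp7b1 and Cyp8b1 led them, at 2.03 (SE 0.52, adjusted p = 0.173) and 1.51 (SE 0.65, adjusted p = 0.347). The median of that list was 0.0063, with 7 of 14 differences above 0, when young replicates 1 and 2 were left out.

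Among 28 tested regulators of hepatic carriers, 23 differences were above 0, with a median of 0.39, and the median was 0.13 without young replicates 1 and 2. Ahr, the aryl hydrocarbon receptor, differed by 1.37 (SE 0.32, adjusted p = 0.139), Ppara, a nuclear receptor for fatty acids, by 1.00 (SE 0.29, adjusted p = 0.227), and the pioneer factor gene Foxa3 by -1.22 (SE 0.34, adjusted p = 0.223), each without overlap, and none of these 3 passed the threshold. Without old replicate 1, or with array weights, Ahr passed the threshold (adjusted p = 0.0327 and 0.0339).

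Slco1a1 and Slco1a4 are known as carriers with male-biased and female-biased expression in mouse liver, so lists of sex-biased genes were set beside them. Male-biased genes had 14 of 19 tested differences above 0 (median 0.33) and 1 rose, the complement regulator gene Susd4 (3.79, SE 0.40, adjusted p = 0.00496), whose adjusted p was 0.0868 without young replicates 1 and 2. The median of that list was then -0.16. Female-biased genes had 4 of 12 tested differences above 0 (median -0.26, and -0.43 without young replicates 1 and 2) and 0 called. For Slco2a1, genes of prostaglandin synthesis, breakdown and reception were the nearest set: 5 of 13 differences were above 0, the median was -0.13 and 0 passed. The smallest p in that list belonged to Pla2g4a, the phospholipase that releases arachidonic acid (-1.74, SE 0.53, adjusted p = 0.252), well above background on 4 young and 1 old array, and to the carbonyl reductase gene Cbr1 (-0.73, SE 0.28, adjusted p = 0.309). The only gene of the 13 whose groups did not overlap was the prostaglandin E synthase gene Ptges. It was higher in old livers (0.19, SE 0.16, adjusted p = 0.578).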

How the data were processed

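Total RNA from 8 male mouse livers (4 per age) was measured on single-colour Agilent arrays. The deposited scanner output gives background-corrected spot intensity from Feature Extraction 10.7.3.1, per the file headers (version 9.1 in the submitters' processing notes). The authors' table, also intensity, equalled it within 1% for 100% of 56605 probes per array (column medians 13.9 to 27.2), hence without scaling between arrays. It held 0 columns of other samples.

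Here log2 of the processed signal was taken, outlier spots were dropped (59 to 97 per array), spots of a probe were averaged, and the 75th percentile (154.7 to 352.8 intensity units) was subtracted. A probe was tested when well above background on at least 4 of 8 arrays, and a gene was its brightest tested probe. Of 17565 gene names, 13828 matched a RefSeq symbol, all 6 carriers included, and 3737 kept the array's name. The ages were compared by lmFit and eBayes of limma 3.58.1 (R 4.3.3), with Benjamini-Hochberg adjustment at 0.05. The code was tested on simulated data. The number of arrays limits the precision.

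The carriers and the 16 lists (302 genes) were chosen with earlier results of these data known. Named genes are the 6 carriers, the 3 genes most like each, and up to 4 per list by smallest p; others are said to be chosen after their values were seen. Samples were grouped by the age in their labels. Replicate numbers were not taken to pair the samples. Alternatives were normexp background correction (offset 50), quantile, median and hepatocyte marker scaling, other probe filters and summaries, another variance prior, array weights, a replicate block, retained outlier spots, the authors' table, and arrays left out. Some genes of the lists are not reported here by name.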

Additional observations from a re-analysis of the deposited data

Results flagged for a closer look

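Outlying samples were sought in 66 groups of 4 arrays, covering at each age the 6 carriers, the other 4 tested carrier probes and 23 other genes. Not every other gene given with a difference was among them. An outlying array was found in 4 groups, or 6.06%, where chance marks about 1 in 20. Slco2a1 was at 4.80 on young replicate 2, the highest of its group, with the next young array at 4.42 and the lowest at 4.35. Susd4 was at -0.73 on the same array, the lowest of its group, with the next young array at 0.46. Pecam1 was at -0.48 on young replicate 4, the highest of its group, with the next young array at -0.67. Stab2 was at 4.79 on old replicate 1, the highest of its group, with the next old array at 4.28.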

How the results depend on the processing

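Over 22 alternatives none of the 6 carriers reached an adjusted p of 0.05, and Slco1b2, Slco2a1, Slco2b1 and Slc22a7 kept their sign in all 22, with differences of 0.46 to 1.37, -1.06 to -0.31, 0.46 to 1.10 and 1.13 to 2.36. The lowest adjusted p was 0.0787, for Slc22a7 without young replicate 4. Slco1a1 and Slco1a4 had the opposite sign with array weights (-0.56 and -0.22) and without young replicates 1 and 2 (-0.73 and -0.34); over single omitted arrays they ran from -0.36 to 0.72 and from -0.081 to 0.36. Slc10a1 turned negative with quantile scaling (-0.0070), normexp with quantile scaling (-0.0039), median scaling (-0.054), hepatocyte marker scaling (-0.0047), array weights (-0.13), without young replicates 1 and 2 (-0.12), and over single omitted arrays ran from -0.084 to 0.17, negative without young replicate 2 (-0.071) and without old replicate 1 (-0.084). The cause was not tested.

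Counts of genes past the threshold were 58 higher and 5 lower. With array weights they were 136 and 36, with signal required on all 8 arrays 20 and 1, and without young replicates 1 and 2 they were 12 and 2. The lower count was 13 with median scaling, which moved the median of all genes from 0.018 to -0.086, 9 with the mean of a gene's probes, and 8 with quantile scaling, without a filter on dim probes or with a trended and robust prior. Over single omitted arrays the higher count ran from 25 to 69 and the lower from 2 to 14: without young replicate 1 25 and 2, without young replicate 2 41 and 3, without young replicate 4 69 and 8, without old replicate 2 50 and 14, without old replicate 3 33 and 5 and without old replicate 4 35 and 4. Fewer samples or genes were tested where arrays were left out or the filter was strict.

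Same-numbered samples correlated in their deviations from the group means by 0.026, 0.14, 0.11 and 0.10 for numbers 1 to 4. Young replicates 2, 3 and 4 correlated best with their own number and young replicate 1 with number 2. Since number 1 stayed near 0 and no label ties the numbers to shared animals or batches, the numbers were not taken to pair the samples. With the number as a replicate block the counts were 53 higher and 17 lower, and the adjusted p was 0.109 for Slc22a7, 0.149 for Slco2b1, 0.185 for Slco1b2 and 0.347 for Slco2a1.

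Ratios of Slco1a1 over Slco1a4, Slco1a1 over Slco2a1 and Slco1a4 over Slco2a1 turned to -0.39, -0.41 and -0.020 without young replicates 1 and 2. Slco1a1 over Slco2b1 was 0.025 with the mean of a gene's probes. Over single omitted arrays Slco1a1 over Slco1a4 ran from -0.29 to 0.39, Slco1a1 over Slco2a1 from -0.050 to 1.16 and Slco1b2 over Slco2b1 from -0.12 to 0.34, each negative without young replicate 2; the first was also negative without old replicate 1 (-0.10) and old replicate 2 (-0.084). The prostaglandin median was -0.24 with median scaling and -0.036 without young replicates 1 and 2, the male-biased median was then -0.16, and the cholangiocyte median was 0.045 with signal required on all 8 arrays. Over single omitted arrays the prostaglandin median ran from -0.31, without old replicate 1, to -0.051, and the stellate median from -0.21 to 0.074, the latter without old replicate 2. The brightest probe of each of the 6 carriers was well above background on all 8 arrays. With normexp background correction and the 75th percentile, the difference was 1.57 for Slc22a7 and 0.083 for Slco1a4, against 1.89 and 0.15 in the main fit. The part of background in these values was not tested.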
